A study of Mus musculus with 8 samples.

Results

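Mammalian cells answer viral nucleic acid and interferon with a shared set of genes, and 35 of these, the interferon response and antigen presentation genes, were followed here in mouse embryonic stem cells. They were chosen by name and role, with earlier results of these data known, so counts over the list are descriptions. The list holds 4 nucleic acid sensors and their regulators, 4 transcription factors, 6 genes of the IFIT and IFITM families, 15 genes of the ISG15 system and other antiviral effectors, and 6 genes of class I antigen presentation. All 35 were among the 55335 genes of the deposited count tables. Of these, 30 passed the filter on low counts, among 16504 genes that did.

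The cells were E14, an established mouse embryonic stem cell line, grown on gelatin in serum medium with LIF and 2 kinase inhibitors that help to hold the naive state. Every culture, the controls included, was infected with a lentiviral vector that expresses a short hairpin RNA (shRNA). The 4 groups were a control shRNA and shRNAs against Sox2 (Sox2-KD), Hnrnpk (hnRNPK-KD) and Cdk9 (Cdk9-KD), with 2 libraries in each group, described by the study as biological duplicates. Sox2 encodes a pluripotency transcription factor, Hnrnpk an RNA-binding protein, and Cdk9 the kinase that releases paused RNA polymerase. The sources do not say which of the shRNAs against a gene went into which library.

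Cytosolic sensors such as RIG-I detect viral RNA and induce type I interferon, which signals through its receptor and the JAK kinases to switch on interferon-stimulated genes. Those genes block viral entry, degrade RNA, mark proteins with ISG15 or carry peptides to the cell surface on class I molecules. Pluripotent stem cells are known for a weak interferon response and low class I expression, while a few antiviral genes, members of the IFITM family among them, are expressed in them without added interferon.

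Each library held 16709201 to 17719366 counts, of which the 35 genes took 0.0811% to 0.114%. Levels are given as CPM, counts scaled to a fixed library size, after TMM scaling, which corrects for differences in library composition. A gene was called changed at an adjusted p under 0.05 and an absolute log2 fold change (log2FC) over 0.6. The test was the quasi-likelihood test of edgeR, and p-values were adjusted over all 16504 genes by the Benjamini-Hochberg method. The targeted genes were checked first. Sox2 stood at 412 and 530 CPM in control and at 320 and 284 CPM in Sox2-KD, Cdk9 at 109 and 129 CPM in control and at 73.1 and 53.2 CPM in Cdk9-KD. Hnrnpk stood at 1094 and 1131 CPM in control, and at 697 and 1144 CPM in the libraries labelled hnRNPK-KD, so that replicate 2 of that group was not below control. That group is called hnRNPK-KD by its label. The 10 pluripotency markers, Sox2 among them, summed to between 6757 and 9035 CPM in every library, with the lowest sum in Sox2-KD replicate 1. In Sox2-KD against control 8 of the 10 had a log2FC below 0 (median -0.22), and 1 was called lower. All comparisons with control use the same 2 control libraries. In bulk RNA, fewer cells that express a gene and less of its RNA per cell cannot be told apart.

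The promoters are shown because the list was chosen by pathway and not by sequence. RefSeq promoter windows (assembly GRCm38.p6, 250 bases before to 50 bases after the annotated start) were found for 30 of the 35 genes, and Dhx58, Usp18, Rtp4, Parp9 and Parp14 had no entry. The core of the interferon-stimulated response element (ISRE), searched as GAAA, any pair of bases and GAAA again on both strands, was present in 13 of the 30 genes (43.3%), against 3.99% of all 27025 genes with a window. The gamma-activated site (GAS), an element known from interferon gamma responses, searched as TTCNNNGAA on both strands, was present in 8 of 30 (26.7%), against 9.55% of all genes. The stretches below belong to genes whose values are described in the following paragraphs, and capitals mark the match. A match is a description of the letters and not of binding.
Rsad2, ISRE core 120 bases before the start, chr12:26456553-26456582, plus strand: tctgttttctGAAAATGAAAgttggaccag
Ifitm3, ISRE core 19 bases after the start, chr7:141010706-141010735, minus strand: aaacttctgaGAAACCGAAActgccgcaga
Ddx58, ISRE core 2 bases after the start, chr4:40239804-40239833, plus strand: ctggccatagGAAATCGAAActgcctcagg
Bst2, ISRE core 130 bases before the start, chr8:71537583-71537612, minus strand: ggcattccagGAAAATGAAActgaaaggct
Oas1a, ISRE core 14 bases before the start, chr5:120907520-120907549, minus strand: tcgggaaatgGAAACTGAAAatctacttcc
Isg15, ISRE core 72 bases before the start, chr4:156200871-156200900, minus strand: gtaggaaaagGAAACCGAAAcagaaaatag
B2m, ISRE core 139 bases before the start, chr2:122147538-122147567, plus strand: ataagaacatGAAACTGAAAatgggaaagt
Irf1, GAS 90 bases before the start, chr11:53769914-53769942, plus strand: acagcctgatTTCCCCGAAatgatgaggc

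Of the genes called by the quasi-likelihood test on all 8 libraries below, Rsad2, Ifitm3, Bst2 and Ddx58 carried an ISRE core in the window. Ifitm3 and Bst2 also held a GAS, Irf1 held a GAS alone, and Parp9 had no window. The windows of the other called genes, Ifitm1, Oasl2 and Irf7, held neither motif. The same held for Oasl1, H2-K1, H2-D1, Tap1 and Psmb9, which were not called.

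In control cells the 35 genes spanned a wide range of levels. Mean control CPM was over 50 for 7 genes, between 10 and 50 for 12, between 1 and 10 for 5 and at most 1 for 11. Compared per length of exon, the IFITM genes stood at the top, with control means of 118 CPM per kb for Ifitm3, 76.1 for Ifitm1 and 57.1 for Ifitm2. These small membrane proteins block the fusion of viruses with endosomes. Trim25, a ubiquitin ligase that acts with RIG-I, followed at 43.7 CPM per kb, and the 2′-5′ oligoadenylate synthetase Oas1a at 30.5 CPM per kb. B2m, the light chain of class I molecules, stood at 25.1 CPM per kb, above both heavy chains, with 6.23 for H2-K1 and 5.28 for H2-D1.

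At the low end, 5 genes had too few counts to be tested. These were Isg15, the ubiquitin-like modifier, Ifih1, the sensor MDA5, Ifit1 and Ifit3, which bind foreign RNA, and Psmb8, a catalytic subunit of the immunoproteasome. Control libraries 1 and 2 held 2 and 1 counts of Isg15, 0 and 1 of Ifih1, 1 and 0 of Ifit1, 0 and 0 of Ifit3, and 3 and 0 of Psmb8. A count of 0 in a library allows up to 3 counts. The level of these genes in control was therefore at the limit of what this depth detects.

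**Figure D1:**
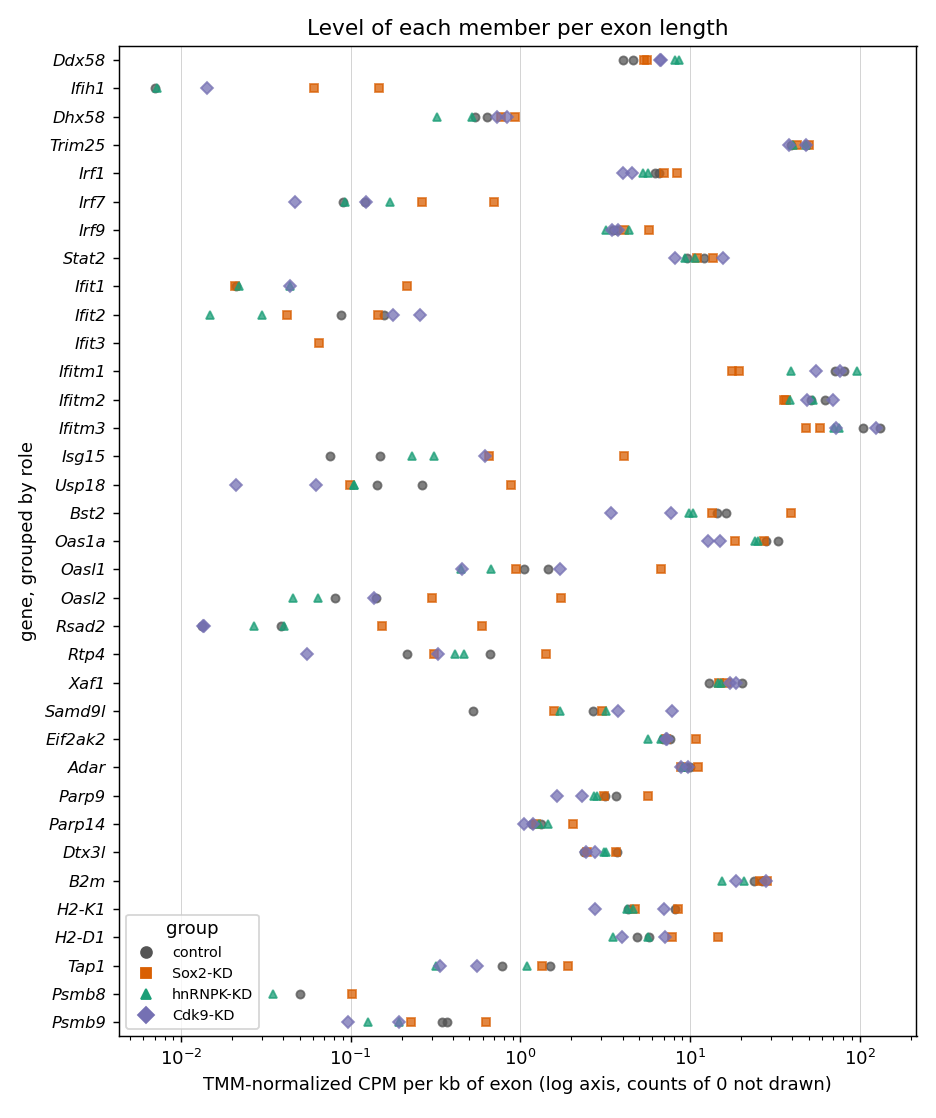
Level of each of the 35 genes as TMM-normalized CPM per kb of exon on a log axis, with 1 point per library, coloured and shaped by group; counts of 0 are not drawn. The IFITM genes and Trim25 lie at the right, the control means running from 118 CPM per kb for Ifitm3 down to a count of 0 in both control libraries for Ifit3.

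Sox2-KD differed from control in 3 of the 30 tested genes (1 higher, 2 lower), against 4.32% of all tested genes called in that comparison (2.63% higher, 1.69% lower). Ifitm1 and Ifitm3 fell and Rsad2 rose. The libraries of Sox2-KD and control did not overlap in 12 of the 30 genes, a smaller share than the 53.3% of all genes. The median log2FC of the 30 was 0.33, and that of all genes 0.02. At an unadjusted p under 0.05 there were 8 genes, the 3 called and Ifitm2, Irf7, Oasl2, H2-D1 and Ddx58, against 19.3% of all genes.

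The IFITM genes lie side by side on chromosome 7 (GRCm38), with Ifitm2 at chr7:140954837-140955987, Ifitm1 at chr7:140967221-140969825 and Ifitm3 at chr7:141009586-141010770. Ifitm1 stood at 77.8 and 88.8 CPM in control and at 21.3 and 19.3 CPM in Sox2-KD. Both Sox2-KD libraries were far below both control libraries and lay close to each other. The fall was 4.09-fold (log2FC -2.03, SE 0.34, edgeR adjusted p = 0.0110). Ifitm1 stood at 43.3 and 105 CPM under hnRNPK-KD and at 84.1 and 60.6 CPM in Cdk9-KD, so that Sox2-KD held the 2 lowest libraries of the series.

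Ifitm3 was measured at 89.6 and 70.6 CPM in control and at 32.6 and 39.5 CPM in Sox2-KD. Here too the groups did not overlap, and the fall was 2.22-fold (log2FC -1.15, SE 0.24, edgeR adjusted p = 0.0258). Every library of the other groups was above both Sox2-KD libraries, with 48.0 and 51.3 CPM under hnRNPK-KD and 84.7 and 49.0 CPM in Cdk9-KD. Ifitm2 stood at 40.8 and 34.0 CPM in control and at 23.5 and 24.1 CPM in Sox2-KD. Both Sox2-KD libraries were again the lower, but the difference did not pass the test (log2FC -0.65, SE 0.22, edgeR adjusted p = 0.132). Ifitm2 shares 34.9% of its 100-base stretches with other annotated transcripts, mainly Gm45717, so its counts are uncertain, while Ifitm1 and Ifitm3 share none.

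Neither IFITM call held each time 1 of the 4 libraries was left out. Ifitm1 kept a log2FC between -2.14 and -1.94 when any of them was left out, but its adjusted p was 0.0390 without control replicate 1, 0.0587 without control replicate 2, 0.0515 without Sox2-KD replicate 1 and 0.0899 without Sox2-KD replicate 2. For Ifitm3 the adjusted p was 0.149 without control replicate 1, 0.0679 without control replicate 2, 0.131 without Sox2-KD replicate 1 and 0.107 without Sox2-KD replicate 2.

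**Figure D2:**
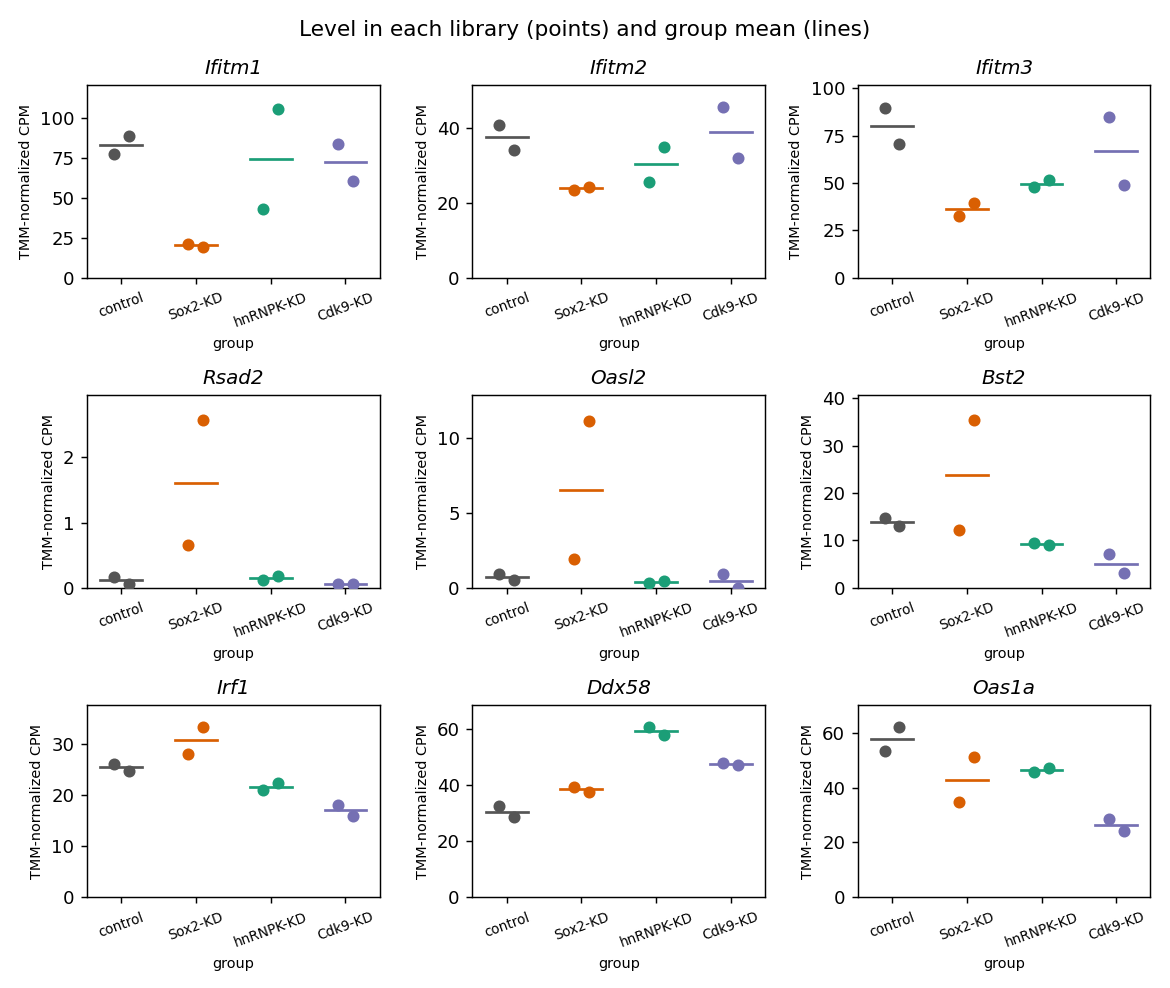
TMM-normalized CPM (vertical axis, from 0, with its own scale in each panel) of 9 genes by group, with a point per library and a line at the group mean (n = 2). Ifitm1, Ifitm2 and Ifitm3 are lowest in both Sox2-KD libraries, at most 39.5 CPM for any of them, while Rsad2, Oasl2 and Bst2 are high in Sox2-KD replicate 2 above all.

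Among the antiviral effectors, Rsad2 was the gene that rose in Sox2-KD. It encodes viperin, a radical SAM enzyme that blocks viral replication, and lies at chr12:26442746-26456452. Control libraries held 3 and 1 counts and Sox2-KD libraries 12 and 45, or 0.659 and 2.57 CPM. All other libraries had at most 3 counts. The ratio of Sox2-KD to control, corrected for library size, was 14.0, with a 95% counting interval of 5.20 to 53.3 that covers counting error only (log2FC 3.74, SE 0.83, edgeR adjusted p = 0.0336). Rsad2 passed the filter on low counts only through the Sox2-KD libraries. Without Sox2-KD replicate 2 the log2FC was 2.46 and the adjusted p 0.299. Without control replicates 1 and 2 in turn, the adjusted p was 0.132 and 0.219.

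Oasl2, which encodes an oligoadenylate synthetase-like protein, had 16 and 9 counts in control and 35 and 195 in Sox2-KD. Under hnRNPK-KD it had 5 and 7 counts, and in Cdk9-KD 15 and 0. Both Sox2-KD libraries exceeded every other library, but replicate 2 held most of the counts, and the difference from control missed the threshold (log2FC 3.19, SE 0.96, edgeR adjusted p = 0.0922). Oasl1, its neighbour on chromosome 5, had 67 and 48 counts in control and 45 and 308 in Sox2-KD. There replicate 1 was below both control libraries and replicate 2 above them (log2FC 1.62, edgeR adjusted p = 0.284).

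Bst2, or tetherin, which holds budding virus at the cell surface, repeated this split, with 14.6 and 13.0 CPM in control and 12.2 and 35.4 CPM in Sox2-KD. So did Usp18, the protease that removes ISG15 and restrains the interferon receptor, with 13 and 7 counts in control and 5 and 43 in Sox2-KD. Rtp4, an interferon-induced zinc finger protein, had 25 and 8 counts in control and 12 and 53 in Sox2-KD. None of these 3 passed the test, with edgeR adjusted p values of 0.385 for Bst2, 0.448 for Usp18 and 0.550 for Rtp4.

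The 2 replicates of Sox2-KD thus stood apart in these genes. Replicate 2 was the highest of the 8 libraries for 25 of the 35 genes. It exceeded replicate 1 in 27 of the 30 tested genes, by a median of 0.56 on the log2 scale, and by over 1 in 9 genes. Over all tested genes the median difference was 0.01, and 5.27% exceeded 1. The genes with the widest gaps were Oasl1 (2.77), Usp18 (2.72), Oasl2 (2.46), Rtp4 (2.02) and Rsad2 (1.79). Usp18, Rsad2 and Irf7, all among the 9 genes, passed the filter on low counts only through the Sox2-KD libraries. The filter therefore favours a high Sox2-KD library in these genes. Of the untested genes, Isg15 had 9 and 54 counts in replicates 1 and 2, Ifih1 9 and 21, and Ifit1 1 and 10. Without Sox2-KD replicate 2, no tested gene of the list was called against control, nor against either other knockdown, by edgeR's quasi-likelihood test. In that fit 5 genes of the list passed an unadjusted p under 0.05 against control (12.1% of all genes did), 4 against hnRNPK-KD (11.2%) and 8 against Cdk9-KD (14%). The log2FC against control then fell below 0 for Oasl1, Bst2, Usp18 and Rtp4. Without Sox2-KD replicate 1, Isg15 passed the filter too, but only through the 54 counts of Sox2-KD replicate 2. The Sox2-KD values in that fit rest on replicate 2 alone.

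**Figure D3:**
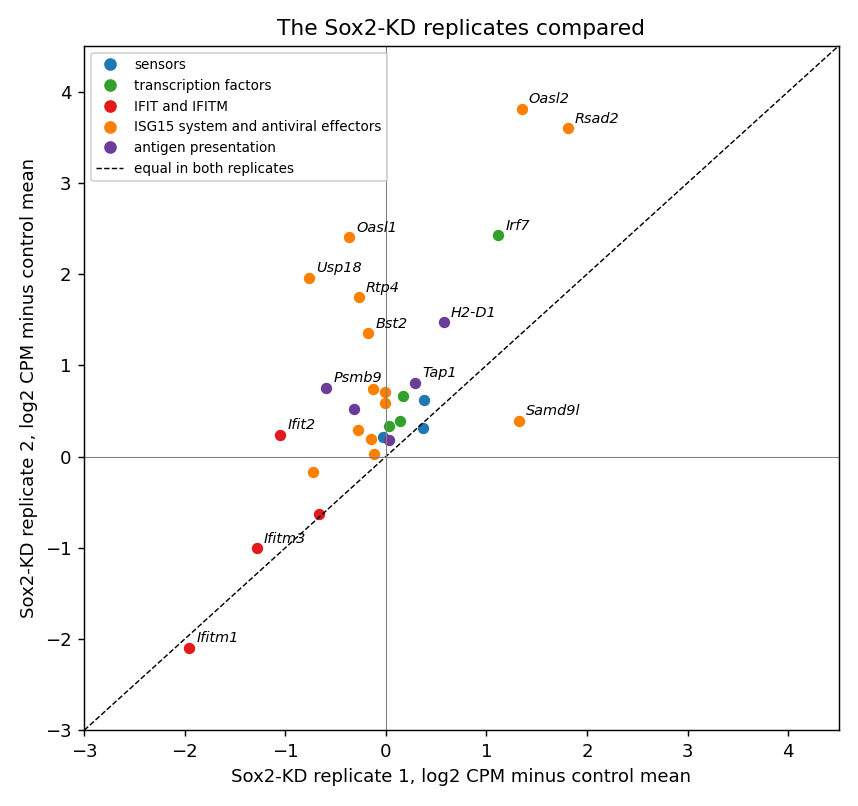
Each tested gene by its log2 CPM minus the control mean in Sox2-KD replicate 1 (horizontal) and replicate 2 (vertical), coloured by role, with a dashed line where both are equal. Of the 30 genes 27 lie above the line, Oasl1 and Usp18 farthest from it, while Ifitm1 and Ifitm3 lie near it at the lower left.

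Among the untested genes, Isg15 and Ifih1 had more counts in both Sox2-KD libraries than in either control library. In Sox2-KD replicates 1 and 2, Ifit1 had 1 and 10 counts, Ifit3 0 and 2, and Psmb8 0 and 6. For these, replicate 1 was not above both control libraries. Isg15 had 63 counts in Sox2-KD and 3 in control, a ratio of 20.7 with a 95% counting interval of 6.77 to 103. In the other groups it had at most 8 counts in a library, and 0 in Cdk9-KD replicate 2. Ifih1 had 30 counts against 1, a ratio of 29.6 with a counting interval from 4.92 to 1207. In a fit with no filter on low counts (33088 genes) neither passed, with edgeR adjusted p values of 0.0846 for Isg15 and 0.0694 for Ifih1.

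The other effectors showed smaller differences. The RNA-activated kinase Eif2ak2 stood at 38.7 and 35.3 CPM in control and at 36.9 and 55.8 CPM in Sox2-KD. Adar, the RNA deaminase, ranged from 71.5 to 90.5 CPM over the 8 libraries, and Xaf1 from 60.6 to 94.8 CPM. The ADP-ribosyltransferases Parp9 and Parp14 and the ubiquitin ligase Dtx3l, which works with Parp9, were not called against control in any knockdown. Parp9 stood at 15.3 and 17.8 CPM in control, 15.1 and 27.7 CPM in Sox2-KD, 13.8 and 13.2 CPM under hnRNPK-KD and 11.3 and 8.04 CPM in Cdk9-KD. Its Cdk9-KD libraries were the lowest of the series and Sox2-KD replicate 2 the highest. Parp14 ranged from 9.82 to 19.0 CPM and Dtx3l from 13.6 to 21.4 CPM over the 8 libraries. Parp9 and Dtx3l lie head to head on chromosome 16 and overlap, and their exons share 458 bases on opposite strands.

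Samd9l, an antiviral and growth-restraining factor, varied most within control, with 14.6 CPM in replicate 1 and 2.86 CPM in replicate 2. It reached 20.4 and 42.3 CPM in Cdk9-KD. Both Cdk9-KD libraries were above both control libraries, but the difference did not pass the test (log2FC 1.84, SE 0.63, edgeR adjusted p = 0.345).

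Among the sensors, Ddx58, which encodes RIG-I and lies at chr4:40203773-40239828, had replicates close together in each group. It stood at 32.3 and 28.5 CPM in control, at 39.2 and 37.6 CPM in Sox2-KD, at 60.7 and 57.8 CPM under hnRNPK-KD and at 47.7 and 47.1 CPM in Cdk9-KD. The 4 groups did not overlap, and every knockdown library was above both control libraries. Against control, none of the 3 differences passed the test, with a log2FC of 0.34 (SE 0.15, edgeR adjusted p = 0.251) in Sox2-KD, 0.96 (SE 0.15, adjusted p = 0.173) under hnRNPK-KD and 0.64 (SE 0.15, adjusted p = 0.171) in Cdk9-KD.

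The call for Ddx58 depended on the test. DESeq2 and edgeR's likelihood ratio test both called it against control under hnRNPK-KD and in Cdk9-KD. The other sensors gave lower or more variable counts. Dhx58, or LGP2, a regulator of RIG-I and MDA5, ranged from 1.06 CPM in hnRNPK-KD replicate 1 to 3.02 CPM in Sox2-KD replicate 2, and Trim25 from 220 to 289 CPM. Neither was called in any comparison.

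The transcription factors were all detected. Irf7, the main amplifier of type I interferon genes, had 6 and 8 counts in control and 18 and 46 in Sox2-KD. Both Sox2-KD libraries exceeded every other library, with 11 counts as the highest elsewhere. The difference from control missed the threshold (log2FC 2.16, SE 0.64, edgeR adjusted p = 0.0902), and Irf7, like Rsad2 and Usp18, passed the filter only through Sox2-KD. Irf1, a factor induced by interferon gamma, stood at 26.2 and 24.7 CPM in control, at 28.1 and 33.4 CPM in Sox2-KD, at 20.9 and 22.4 CPM under hnRNPK-KD and at 18.1 and 16.0 CPM in Cdk9-KD. Its groups did not overlap, with Sox2-KD the highest and Cdk9-KD the lowest, and none of the differences from control passed the test. Stat2 ranged from 48.1 to 92.5 CPM and Irf9 from 17.2 to 30.9 CPM, and neither was called in any comparison.

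Class I antigen presentation gave no call against control in any knockdown. H2-D1, a class I heavy chain, was the gene nearest to one, with 14.8 and 12.5 CPM in control and 20.3 and 37.9 CPM in Sox2-KD. Both Sox2-KD libraries were above both control libraries (log2FC 1.09, SE 0.36, edgeR adjusted p = 0.118), and DESeq2 and the likelihood ratio test called it. The other heavy chain, H2-K1, stood at 24.0 and 12.6 CPM in control and at 13.9 and 25.1 CPM in Sox2-KD, so that these groups overlapped. H2-D1 shares 3.59% of its 100-base stretches with other class I genes, and H2-K1 0.957%.

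B2m stood between 13.3 and 24.5 CPM in all libraries. Tap1, a subunit of the peptide transporter, stood at 8.22 and 4.30 CPM in control, 7.31 and 10.5 CPM in Sox2-KD and 3.04 and 1.83 CPM in Cdk9-KD. Cdk9-KD lay below control in both libraries without passing the test (log2FC -1.36, SE 0.54, edgeR adjusted p = 0.424). The immunoproteasome subunit Psmb9 had 24 and 22 counts in control, 15 and 40 in Sox2-KD, 12 and 8 under hnRNPK-KD and 12 and 6 in Cdk9-KD. Its level per length, 0.357 CPM per kb in control, was far below those of the constitutive catalytic subunits, which had control means of 82.1 for Psmb5, 88.9 for Psmb6 and 49.7 for Psmb7. None of these 3 subunits was called in any comparison with control.

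Under hnRNPK-KD, none of the 30 genes was called against control by edgeR's quasi-likelihood test, as was none of all 16504 genes (0%). At an unadjusted p under 0.05 there were 3, namely Ddx58, Ifitm3 and Ifit2, against 8.03% of all genes. DESeq2 and edgeR's likelihood ratio test each called 1, Ddx58. Ifit2, a binder of viral RNA, had 11 and 6 counts in control and 2 and 1 under hnRNPK-KD (edgeR adjusted p = 0.540). Its ratio to control was 0.182, with a 95% counting interval of 0.0341 to 0.628. Ifitm3 had a log2FC of -0.69 (SE 0.24, edgeR adjusted p = 0.516), with both libraries below both control libraries. The hnRNPK-KD and control libraries did not overlap in 15 of the 30 genes, against 39.1% of all genes, and 14 of these 15 were lower, as were 3092 of the 6459 such genes overall. The median log2FC of the 30 was -0.23, and that of all genes 0.02.

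In Cdk9-KD, edgeR's quasi-likelihood test again called none of the 30 genes against control, and 0.139% of all genes. At an unadjusted p under 0.05 there were 7, namely Ddx58, Irf1, Bst2, Oas1a, Samd9l, Parp9 and Tap1, against 10.4% of all genes. DESeq2 called 3 (Ddx58, Oas1a and Bst2), and the likelihood ratio test 2 (Ddx58 and Oas1a). Cdk9-KD and control did not overlap in 11 of the 30 genes, against 39.2% of all genes, and 7 of these 11 were lower, as were 2965 of the 6471 such genes overall. The median log2FC of the 30 was -0.21.

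Oas1a, which makes the second messenger that activates RNase L, was nearest to the threshold in Cdk9-KD. It stood at 53.2 and 61.9 CPM in control and at 28.4 and 24.1 CPM in Cdk9-KD, which held the 2 lowest libraries of the series (log2FC -1.13, SE 0.20, edgeR adjusted p = 0.0703). Oas1a shares 40.9% of its 100-base stretches with its paralog Oas1g, so that reads can be split between them. Leaving out a Sox2-KD library brought Oas1a past the threshold in this comparison, with the same direction. Bst2 stood at 7.01 and 3.08 CPM in Cdk9-KD, below both control libraries (log2FC -1.45, SE 0.47, edgeR adjusted p = 0.326). Cdk9-KD replicate 2 was the lowest library, ties included, for 16 of the 35 genes, with counts of 0 for Isg15 and Oasl2 among others.

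**Figure D4:**
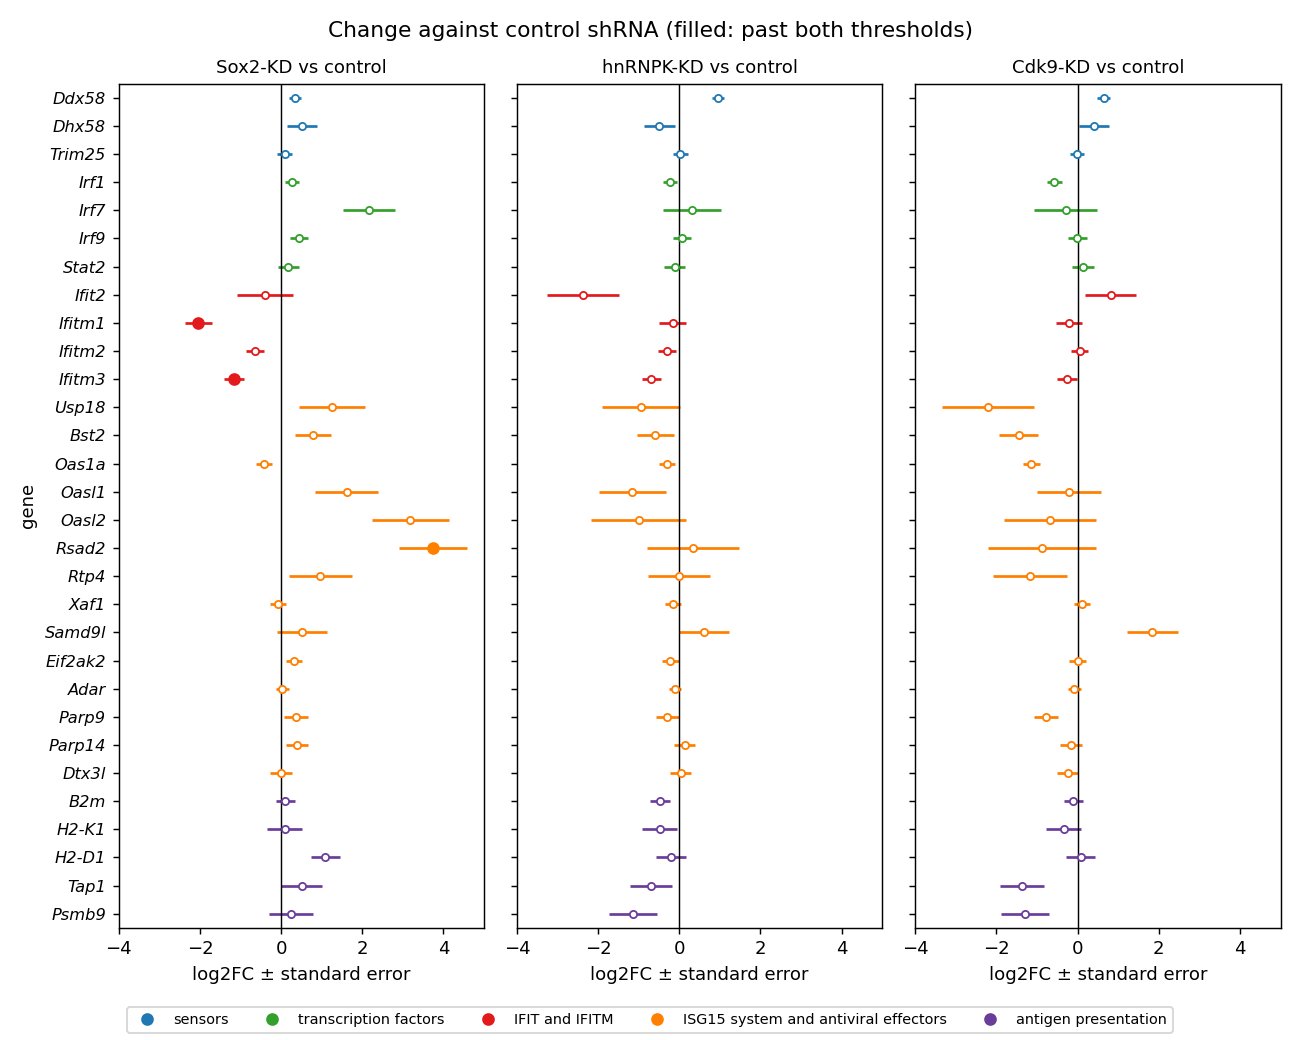
Log2FC against control with its standard error for the 30 tested genes, with a panel for each knockdown, coloured by role; filled points passed both thresholds. The filled points are Ifitm1 and Ifitm3 to the left and Rsad2 to the right in Sox2-KD, and there is none in the other 2 panels.

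The knockdowns were also compared with each other, in tests that share the Sox2-KD libraries. Between Sox2-KD and Cdk9-KD, 8 of the 30 genes were called (6 higher, 2 lower), against 7.33% of all genes (4.77% higher, 2.56% lower). Higher in Sox2-KD were Irf1 (log2FC 0.85, SE 0.18, edgeR adjusted p = 0.0188), Irf7 (2.46, SE 0.66, adjusted p = 0.0493), Bst2 (2.24, SE 0.48, adjusted p = 0.0188), Oasl2 (3.87, SE 1.02, adjusted p = 0.0447), Rsad2 (4.62, SE 0.93, adjusted p = 0.0149) and Parp9 (1.15, SE 0.29, adjusted p = 0.0408). Lower in Sox2-KD were Ifitm1 (log2FC -1.83, SE 0.34, adjusted p = 0.0108) and Ifitm3 (-0.89, SE 0.24, adjusted p = 0.0499).

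For Rsad2 the Sox2-KD to Cdk9-KD ratio was 27.1, with a 95% counting interval of 7.18 to 230, since Cdk9-KD held 1 count in each library. Rsad2 and Irf7 passed the filter on low counts only through the Sox2-KD libraries. None of the 8 was called without Sox2-KD replicate 2. Without Cdk9-KD replicate 2 those called were Ifitm1 and Ifitm3, and without Cdk9-KD replicate 1 Oasl2, Bst2 and Irf1. Ifitm3 and Irf7 were close to the threshold, and their calls were lost in 13 of 16 and 11 of 15 alternatives. Each of the 6 genes that were higher in Sox2-KD had its highest value of the series in Sox2-KD replicate 2.

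Against hnRNPK-KD, 4 of the 30 genes were called in Sox2-KD (2 higher, 2 lower), while 5.9% of all genes were called (3.95% higher, 1.95% lower). Ifitm1 (log2FC -1.87, SE 0.34, edgeR adjusted p = 0.0140) and Ddx58 (-0.63, SE 0.15, adjusted p = 0.0354) were lower in Sox2-KD. Oasl2 (4.19, SE 1.05, adjusted p = 0.0415) and Rsad2 (3.40, SE 0.81, adjusted p = 0.0347) were higher, with 12 counts of Oasl2 and 5 of Rsad2 in the 2 hnRNPK-KD libraries together. Rsad2 again passed the filter only through Sox2-KD. DESeq2 called neither Oasl2 (adjusted p = 0.0879) nor Rsad2 (0.0647). None of the 4 was called without Sox2-KD replicate 2 or without hnRNPK-KD replicate 2, and 2 genes, Ifitm1 and Tap1, were called without hnRNPK-KD replicate 1. Between Cdk9-KD and hnRNPK-KD, edgeR's quasi-likelihood test called none, as was none of all genes (0%). In that comparison 3 genes passed an unadjusted p under 0.05, namely Dhx58, Ifit2 and Oas1a, against 5.71% of all genes. The likelihood ratio test called 1, Ifit2, and DESeq2 none.

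**Figure D5:**
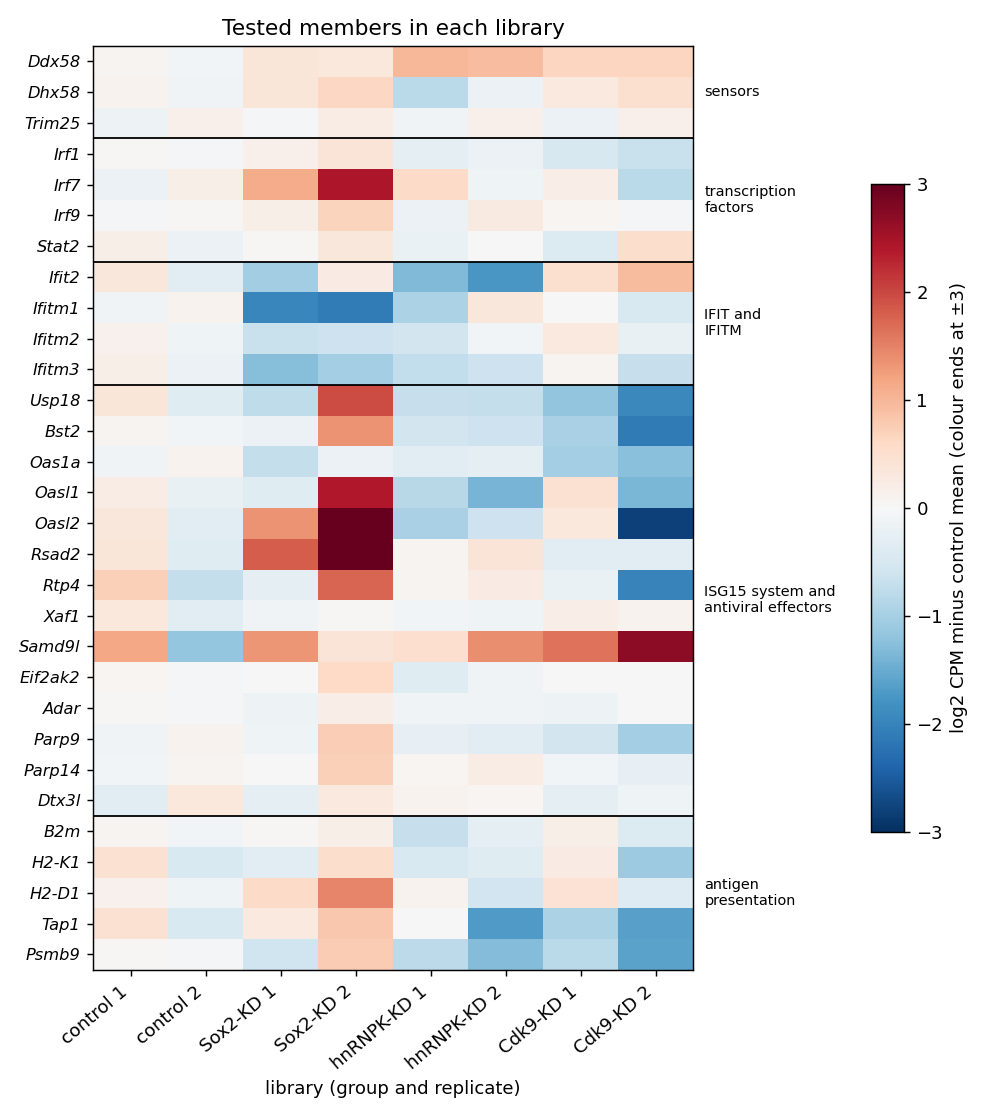
Log2 CPM minus the control mean for the 30 tested genes (rows, grouped by role) in each of the 8 libraries (columns), with red above and blue below the control mean. The column of Sox2-KD replicate 2 is red for most antiviral effectors, while Ifitm1, Ifitm2 and Ifitm3 are blue in both Sox2-KD columns.

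Upstream of these genes the interferons themselves were almost unread. None of the 10 listed ligands, among them Ifnb1, 4 Ifna genes and Ifng, passed the filter, and no ligand had over 3 counts in any library. The receptors and their signalling chain were present, with all 14 listed genes tested. Ifnar1, a chain of the type I receptor, stood between 48.5 and 56.7 CPM in the 8 libraries. None of the 14 was called against control in any knockdown. Jak1, the kinase shared by the interferon receptors, stood at 71.0 and 83.3 CPM in control, at 83.5 and 101 CPM in Sox2-KD and between 51.5 and 60.7 CPM in the other knockdowns. It was higher in Sox2-KD than under hnRNPK-KD (log2FC 0.72, SE 0.17, edgeR adjusted p = 0.0327) and than in Cdk9-KD (log2FC 0.72, SE 0.17, adjusted p = 0.0281). Without Sox2-KD replicate 2 the adjusted p was 0.304 and 0.227.

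Of 15 listed genes of nucleic acid sensing 11 were tested, and in Sox2-KD against control 1 was called higher and 1 lower. Over all tested genes 2.63% were called higher and 1.69% lower in that comparison. Tmem173, or STING, the adaptor of DNA sensing, had 3.27 and 4.87 CPM in control and 14.1 and 15.8 CPM in Sox2-KD, a rise of 3.67-fold (log2FC 1.88, SE 0.45, edgeR adjusted p = 0.0442). Mavs, the adaptor on which RIG-I and MDA5 signal, had 61.4 and 50.9 CPM in control and 30.7 and 28.4 CPM in Sox2-KD, a fall of 1.90-fold (log2FC -0.93, SE 0.17, edgeR adjusted p = 0.0158). In both genes the 2 Sox2-KD libraries lay close together and apart from control. Leaving out single libraries lost both calls, with an adjusted p between 0.105 and 0.251 for Tmem173 without any of the 4 libraries, and of 0.115, 0.0619 and 0.134 for Mavs without control replicate 1, Sox2-KD replicate 1 and Sox2-KD replicate 2. Other adaptors were above control in both Sox2-KD libraries without being called, Myd88 of the Toll-like receptors with an adjusted p of 0.0622 and Ticam1 with one of 0.199. Against control, edgeR did not call Tmem173 with no filter (adjusted p = 0.0585) or with the replicate block (0.0558). Tmem173 was also called higher, and Mavs lower, in Sox2-KD than in either other knockdown. Each of these calls was lost without Sox2-KD replicate 2. There the log2FC against hnRNPK-KD and Cdk9-KD was 2.479 and 2.425 for Tmem173 and -0.786 and -0.894 for Mavs. Against hnRNPK-KD both were also lost without hnRNPK-KD replicate 2, and Mavs without Sox2-KD replicate 1. The adaptor Traf3 stood at 38.9 and 40.1 CPM in Sox2-KD and at 24.7 and 25.7 CPM in Cdk9-KD (log2FC 0.65, SE 0.17, edgeR adjusted p = 0.0399). That call was lost without any of these 4 libraries or either control library, with a log2FC between 0.62 and 0.67. Traf3 was also not called by edgeR with no filter (adjusted p = 0.0912), with only the 4 libraries compared (0.0619) or with the replicate block (0.0513). The kinase Tbk1, which acts below both adaptors, stood at 50.1 and 43.2 CPM in control and at 67.3 and 66.3 CPM in Sox2-KD and was not called (edgeR adjusted p = 0.355).

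Of 39 other interferon-stimulated genes 22 were tested, and 3 rose in Sox2-KD against control, where 2.63% of all genes were called higher. Gbp2, an interferon-induced GTPase, had 0 counts in both control libraries and 18 and 29 in Sox2-KD, which is at least 7.72-fold higher when 3 counts are allowed in each control library (edgeR adjusted p = 0.0158). It passed the filter on low counts only through the Sox2-KD libraries. Irgm1, another such GTPase, rose from 8.05 and 3.84 CPM to 17.7 and 23.7 CPM (log2FC 1.80, SE 0.44, edgeR adjusted p = 0.0458). With no filter (adjusted p = 0.0585) or the replicate block (0.0588), edgeR did not call Irgm1. Nor did it with at least 10 counts required in every library (0.0501). Ube2l6, the conjugating enzyme of ISG15, rose from 16.0 and 15.4 CPM to 28.8 and 47.5 CPM (log2FC 1.28, SE 0.28, edgeR adjusted p = 0.0290). Without Sox2-KD replicate 2 none of the 3 was called, with an adjusted p of 0.0973 for Gbp2, 0.249 for Irgm1 and 0.254 for Ube2l6. Leaving out control replicates 1 and 2 in turn gave 0.0915 and 0.102 for Gbp2, 0.0710 and 0.264 for Irgm1, and 0.146 and 0.165 for Ube2l6, and Irgm1 had 0.0832 without Sox2-KD replicate 1. None of the 22 was called against control under hnRNPK-KD or in Cdk9-KD.

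Between the knockdowns, 5 of these 22 genes were called in Sox2-KD against hnRNPK-KD (4 higher, 1 lower) and 8 against Cdk9-KD (7 higher, 1 lower), where 5.9% and 7.33% of all genes were called. Ifi27, an interferon-induced membrane protein, had 122 and 103 counts in control, 88 and 580 in Sox2-KD, 26 and 31 under hnRNPK-KD and 17 and 5 in Cdk9-KD. Lgals3bp, a secreted glycoprotein, had 32 and 42 counts in control, 28 and 178 in Sox2-KD, 9 and 9 under hnRNPK-KD and 8 and 2 in Cdk9-KD. In both genes Sox2-KD replicate 1 was below the control libraries and replicate 2 far above them, and both were higher in Sox2-KD than in either other knockdown (edgeR adjusted p of at most 0.0342). Without Sox2-KD replicate 2 only the call of Ifi27 against Cdk9-KD was kept, and that one was lost without Cdk9-KD replicate 2 (adjusted p = 0.0626).

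Gbp2 and Ube2l6 were higher in both of these comparisons too, and Irgm1 against Cdk9-KD. Gbp2 passed the filter only through Sox2-KD, and DESeq2 did not call it against hnRNPK-KD (adjusted p = 0.0644). Without hnRNPK-KD replicates 1 and 2 in turn, Gbp2 lost its call against that group, with a log2FC of 7.535 and 4.344. So did Ube2l6, with 1.254 and 1.491. The call of Gbp2 against Cdk9-KD was lost without Cdk9-KD replicate 2. The ubiquitin ligase Rnf213 stood at 58.6 and 40.9 CPM in Cdk9-KD and at 121 and 248 CPM in Sox2-KD (log2FC 1.89, SE 0.30, edgeR adjusted p = 0.00507). Oas1g, the paralog of Oas1a, had 172 and 132 counts in Cdk9-KD and 256 and 437 in Sox2-KD (log2FC 1.13, SE 0.28, edgeR adjusted p = 0.0363). It was not called by edgeR with no filter (adjusted p = 0.0548), with only the 4 libraries compared (0.0643) or with the replicate block (0.0529). Without Sox2-KD replicate 2 its log2FC was 0.65. Tor3a, an interferon-induced ATPase of the endoplasmic reticulum, ran the other way, with 4.45 and 3.31 CPM in Sox2-KD, 9.09 and 14.1 CPM under hnRNPK-KD and 21.1 and 12.5 CPM in Cdk9-KD. Without Sox2-KD replicate 2, the calls of Gbp2 and Tor3a were lost in both comparisons, and that of Ube2l6 against hnRNPK-KD. Against hnRNPK-KD the log2FC was then 4.77 for Gbp2, -1.38 for Tor3a and 0.96 for Ube2l6.

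Of the 18 other antigen presentation genes 15 were tested, and none was called against control in any knockdown. Erap1, the peptidase that trims peptides for class I molecules, stood at 2.20 and 2.18 CPM in control, 5.06 and 4.85 CPM in Sox2-KD and 1.99 and 1.95 CPM in Cdk9-KD. It was higher in Sox2-KD than in Cdk9-KD (log2FC 1.33, SE 0.34, edgeR adjusted p = 0.0393), a call lost without any of these 4 libraries or either control library (adjusted p between 0.0553 and 0.157).

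The summed markers of 2 other lineages were higher in Sox2-KD than in control, though not every gene was. The 8 trophectoderm markers summed to 85.5 and 99.0 CPM in control, 179 and 313 CPM in Sox2-KD, 89.5 and 122 CPM under hnRNPK-KD and 63.4 and 65.9 CPM in Cdk9-KD. Of the 6 tested, 4 (Krt7, Krt8, Krt18 and Gata3) rose in Sox2-KD against control. The other 2 had a log2FC below 0, with both Sox2-KD libraries below both control libraries, and were not called. Of these 2, Cdx2 had 19.8 and 35.1 CPM in control and 6.10 and 6.22 CPM in Sox2-KD. The 7 primitive endoderm markers summed to 3.83 and 5.10 CPM in control and to 43.1 and 62.5 CPM in Sox2-KD, and to at most 5.96 CPM in the other groups. Of the 5 tested, 4 had a log2FC above 0 against control and 1 below 0, and Dab2 and Gata6 were called higher.

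Both sums were larger in Sox2-KD replicate 2 than in replicate 1, as were most of the antiviral genes, and their part in the results above was not tested. The 7 blood and macrophage markers summed to 16.5 and 12.3 CPM in control and to 15.8 and 15.1 CPM in Sox2-KD, most of it from Cd68. In Sox2-KD replicates 1 and 2 the leukocyte gene Ptprc had 0 and 1 counts, Tyrobp 0 and 1, and Adgre1 0 and 3, while Lyz2 had 6 and 36. The 8 fibroblast markers summed to between 2.54 and 6.93 CPM over all libraries, and 5 were tested. In Sox2-KD 4 of these 5 had a log2FC below 0, among them Col1a2 with 32 and 24 counts in control and 4 and 1 in Sox2-KD (edgeR adjusted p = 0.0565). The other, Lum, was called higher, with 23 and 13 counts against 0 and 1 in control, and passed the filter only through Sox2-KD, as did Krt7, Gata3 and Gata6.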

How the data were processed

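Poly(A) RNA from 8 cultures of E14 cells was sequenced as 150-base read pairs on a BGI platform. According to the study's methods and the submitters' processing notes, the authors trimmed the reads, aligned them with STAR (2.7.9a in the notes) to GRCm38 (mm10) with GENCODE vM23, and counted them per gene with featureCounts 2.0.1. The deposited values are raw counts per gene, not normalized. How strand and reads matching several genes were handled is not given in the sources used here.

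The 8 libraries were fitted together with a group term in edgeR 4.0.16 (R 4.3.3, limma 3.58.1), with TMM scaling, a count minimum of 10 (filterByExpr, total minimum 15), the quasi-likelihood test and the study's cut-offs (0.05 for the adjusted p, 0.6 for the absolute log2FC). The fit's biological coefficient of variation was 0.186. Log2 CPM of single libraries used a prior count of 2. Groups came from the sample titles, and replicates of each group differed by more than sampling noise. Alternatives were DESeq2 1.42.0, edgeR's likelihood ratio test, RLE size factors, library totals, no filter, a stricter filter (10 or more counts in each library), a fit of just the 4 libraries compared, a replicate block, and leaving out each library in turn. The code was tested on simulated counts.

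Exon lengths and coordinates came from GENCODE vM21 (GRCm38), matched by gene ID, and promoter sequences from RefSeq (GRCm38.p6). Shared 100-base stretches were counted over annotated transcripts. Counting intervals are exact 95% intervals of a ratio of counts, and cover counting error only, as does the allowance of 3 counts for a count of 0. Genes described one by one were those called in any comparison or at an unadjusted p under 0.05 against control, with the rest of their family or complex. The genes and lists were chosen with earlier results of these data known, so counts over the list are descriptions. With 2 libraries a group, p-values rest on a spread estimated across genes. Figures were drawn with matplotlib 3.10.9.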

Additional observations from a re-analysis of the deposited data

How the results depend on the processing

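Among the genes and comparisons refitted under every alternative, 4 changed direction, all of them uncalled in Sox2-KD against control and all without Sox2-KD replicate 2. When single libraries were left out, the log2FC of Oasl1 ran from -0.40 to 2.42, that of Bst2 from -0.18 to 1.35, that of Usp18 from -1.03 to 2.09 and that of Rtp4 from -0.50 to 1.97. The number of genes called in Sox2-KD against control was 3 and became 6 with the likelihood ratio test and 0 to 5 when single libraries were left out. It was 1 (Ifitm1) without control replicate 1, 0 without control replicate 2 or Sox2-KD replicate 2, and 5 without either Cdk9-KD library, where Isg15 and Oasl2 joined. Under hnRNPK-KD against control it was 0 and became 1 with the likelihood ratio test and 1 with DESeq2. In Cdk9-KD against control it was 0 and became 2 with the likelihood ratio test, 3 with DESeq2 and 0 to 1 when single libraries were left out, the 1 being Oas1a without either Sox2-KD library. In Sox2-KD against hnRNPK-KD it was 4 and became 2 with the stricter filter of 10 or more counts in each library, 8 with the likelihood ratio test and 0 to 9 when single libraries were left out. There it was 2 without either control library or hnRNPK-KD replicate 1, 9 without Sox2-KD replicate 1, and 0 without Sox2-KD replicate 2 or hnRNPK-KD replicate 2. In Sox2-KD against Cdk9-KD it was 8 and became 5 with no filter, 4 with the stricter filter, 5 with only the 4 libraries compared, 5 with the replicate block and 0 to 11 when single libraries were left out. There it was 11 without Sox2-KD replicate 1, 4 without either control library, 3 without Cdk9-KD replicate 1, 2 without Cdk9-KD replicate 2 and 0 without Sox2-KD replicate 2. In Cdk9-KD against hnRNPK-KD it was 0 and became 1 with the likelihood ratio test. The share of all genes called in each of these fits is not set beside these counts. A change in a count may therefore come with a change over all genes, and it does not set the list apart. Where Isg15 passed the filter on low counts, it did so only through Sox2-KD replicate 2. The cause of these changes was not tested, except that the stricter filter leaves out Rsad2, Oasl2 and Irf7 by construction. A library left alone in its group is assumed to vary like the others.

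Same-numbered libraries deviated from their group means with correlations between -0.223 and 0.21, so the numbers were not taken to pair the libraries. With the replicate block, the 5 genes called in Sox2-KD against Cdk9-KD were Ifitm1, Bst2, Irf1, Rsad2 and Tap1. In the other comparisons the number called stayed within 1.5 times, although Oasl2 was lost against hnRNPK-KD (adjusted p = 0.0671). With only the 4 libraries compared, Rsad2 was lost against hnRNPK-KD (adjusted p = 0.0589) and against control (0.0520).

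With 2 libraries a group, a single culture can carry a difference. Genes with at most 3 counts in each control library, namely Isg15, Ifih1, Ifit1, Ifit3, Psmb8 and Rsad2, cannot show a fall from control at this depth.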
